A study of Mus musculus with 15 samples.

Results

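The genes of the mitochondrial carriers and of protein import across the mitochondrial membranes were examined by taking every probe set with a single symbol in the platform annotation that starts with Slc25, Timm or Tomm. This gave 55 genes, read by 108 of the 22690 probe sets of the table: 65 probe sets for 33 Slc25 genes, 25 for 15 Timm genes and 18 for 7 Tomm genes. Of the 108, 85 were among the 11313 brightest of the 22626 probe sets tested and 23 were not, and 26 of the 55 genes were read by more than 1 probe set.

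Mitochondria make few of their own proteins, so most are made in the cytosol and threaded through the outer membrane by the TOM complex and on to the inner membrane or the matrix by the TIM complexes. Most of the Slc25 family, but not every member, are carriers of the inner membrane, which exchange nucleotides, phosphate, carboxylates, amino acids, iron and cofactors between the cytosol and the matrix. These carriers are themselves inserted by the TIM22 route. In skeletal muscle the ADP/ATP carrier and the phosphate carrier supply the ATP synthase.

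RNA was taken from the gastrocnemius, a mainly fast-twitch muscle of the calf, of 15 male C57BL/6NHsd mice, with 1 MOE430A array per mouse and 5 different mice per group. The old CR mice were 25 months old and had been on life-long caloric restriction, with a 26% difference in calories from the normal diet and added protein, vitamins and minerals. The old mice were 25 months old and the young mice 5 months old, and both had the normal diet, which itself gave less than mice eat freely. All mice were housed singly.

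The deposited values are linear intensities scaled array by array, and the medians of the 15 arrays were 200.6 to 243.5. All 8 markers of skeletal muscle fibers were measured, with summed intensities of 186650 to 266990 in old CR, 162080 to 215470 in old and 203990 to 241830 in young mice. The arrays carry control probe sets at both ends of the Gapdh and Actb transcripts, and their 3' minus 5' difference on the log2 scale, which is higher where the 5' end gives relatively less signal, is a measure of RNA quality. It separated the groups. Its mean over both genes was -0.30 ± 0.08 in old CR mice and 0.13 ± 0.09 in old mice (SD, n = 5 each), and a two-sided exact permutation test gave p = 0.00794, which 5 against 5 arrays cannot go below (adjusted p = 0.0179 over 9 tests). Young mice were at -0.18 ± 0.14, below the old mice (exact permutation p = 0.0159, adjusted p = 0.0286) and not separated from the old CR mice (exact permutation p = 0.127). Young mouse 3, at 0.06, was the only young mouse within the range of the old group.

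Old CR mice were first compared with old mice of the same age, which addresses what diet changed at 25 months. Transcripts of the motor subunit Timm44, the intermembrane chaperone Timm13 and the complex I assembly factor Timmdc1 were higher in old CR muscle, and those of the channel subunit Timm17b, the iron carrier Slc25a28 and 1 of the 5 probe sets of the amino acid carrier Slc25a29 were lower. These were the 6 of 108 probe sets called (limma, adjusted p under 0.05 over all 22626 probe sets tested), or 5.56%, beside 4.87% of all probe sets called in this comparison, and 23 had an unadjusted p under 0.05, beside 21.9% of all. The share of the carriers and import genes called was thus close to that of the array as a whole. The 3 higher calls compare with 2.7% of all probe sets called higher, and the 3 lower calls with 2.17% called lower. In 6 probe sets the groups did not overlap (beside 8.89% of all), 4 higher (4.86%) and 2 lower (4.04%), namely Timm44, Timm13, Timmdc1 and Timm10b above and Timm17b and Slc25a28 below. In all, 65 member probe sets had a higher mean log2 intensity in old CR mice and 43 a lower one, with a median difference of 0.09, beside 0.06 over all probe sets. Of the 85 members among the 11313 brightest, 5.88% were called in the same fit, beside 7.08% of all 11313. The medians there were 0.10 and -0.0038. By the brightest probe set of each gene, 34 genes were higher and 21 lower, and 4 were called. The muscle was measured in bulk, so a different share of a cell type and a different amount of RNA per cell cannot be told apart. The summed intensity of the 6 slow fiber markers did not overlap either, at 56754 to 83119 in old CR and 23752 to 52169 in old mice, with 1 of the 6, the slow troponin C Tnnc1, called 1.45 higher on the log2 scale. Of the other marker lists, the fast fiber myosin Myh1 was called higher (0.52, adjusted p = 0.0297) and the endothelial Vwf lower (-1.02, adjusted p = 0.0180), while the sums of their lists overlapped. The other endothelial markers were not called and had both signs. Pecam1 was at 0.79 (limma adjusted p = 0.0529), Tek at 0.15, Kdr at -0.04 and Cdh5 at -0.18. The part of these markers in the differences below was not tested.

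**Figure D1:**
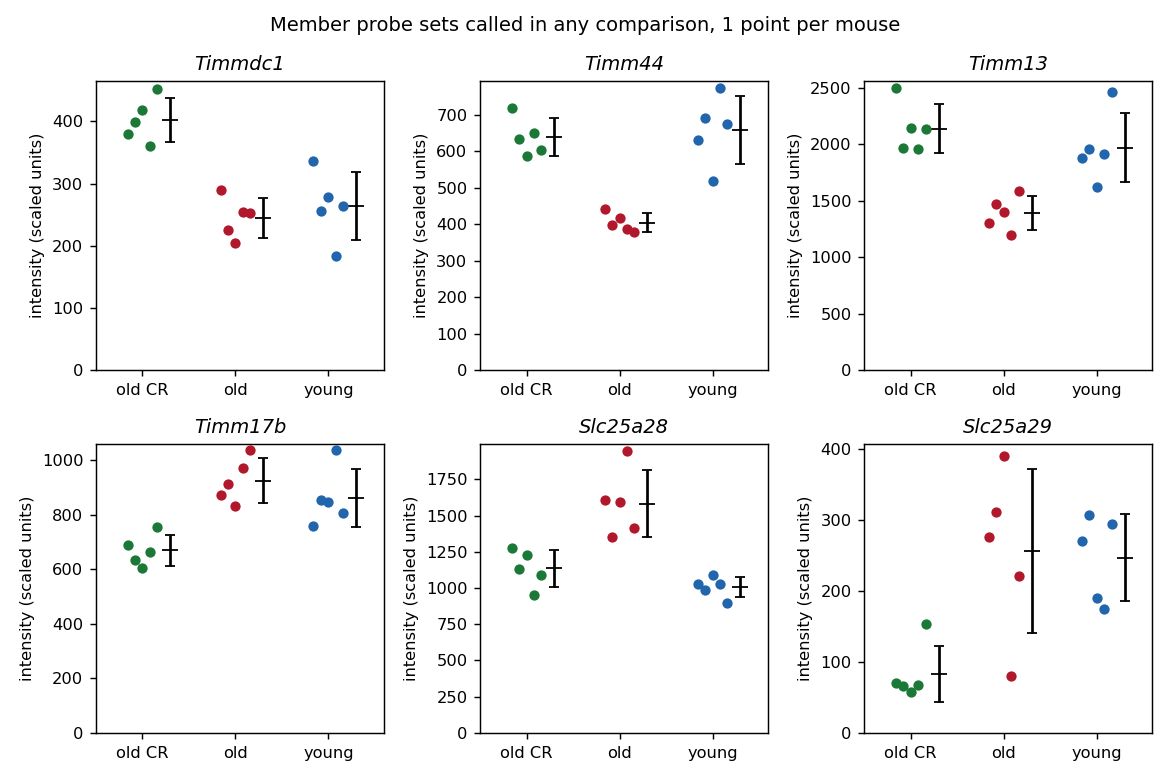
Intensity (scaled units, linear axis from 0) of the 6 member probe sets called in any comparison, with 1 point per mouse and the mean and SD of each group of 5 beside the points, for old CR, old and young mice. Timmdc1, Timm44 and Timm13 lie higher in old CR than in old mice without overlap, Timm17b and Slc25a28 lower without overlap, and for Slc25a29 1 old mouse (80.37) lies among the old CR values.

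Timm44 holds the mitochondrial Hsp70 at the exit of the TIM23 channel, where the chaperone pulls proteins into the matrix. Its probe set 1417670_at read 719.6, 635.0, 585.9, 650.3 and 603.6 in old CR mice, against 442.6, 399.3, 417.3, 386.6 and 378.5 in old mice. Every old CR mouse was above every old mouse. The ratio was 1.58, or a difference of 0.66 ± 0.12 on the log2 scale (SE, limma adjusted p = 0.0123), and the call held when any of the 15 arrays was left out (adjusted p up to 0.0323). Timm44 was read by another 2 probe sets that were not called, 1448801_a_at with a difference of 0.17 ± 0.14 and 1439371_x_at with -0.01 ± 0.25, so the call rests on 1 of its 3 probe sets.

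The RefSeq promoter of Timm44 (build GRCm38.p6, from 250 bases before to 50 after the start) is shown because the gene leads this comparison. It holds the letters of a YY1 motif, AANATGGCG, from base 16 after the start, in capitals.
Timm44, chr8:4275856-4276155, minus strand: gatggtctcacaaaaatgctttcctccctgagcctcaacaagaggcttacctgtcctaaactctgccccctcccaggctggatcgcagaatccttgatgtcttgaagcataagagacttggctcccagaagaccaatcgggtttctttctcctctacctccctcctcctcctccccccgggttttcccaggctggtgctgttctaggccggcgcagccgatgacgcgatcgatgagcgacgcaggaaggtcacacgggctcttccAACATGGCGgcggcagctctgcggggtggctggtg

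Timm13 forms, with Timm8 proteins, the hexamer that guides hydrophobic proteins across the intermembrane space. Its only probe set, 1455211_a_at, read 2494, 1970, 2141, 1953 and 2135 in old CR mice, against 1300, 1468, 1396, 1193 and 1589 in old mice. The lowest old CR mouse was above the highest old mouse. The ratio was 1.54, a log2 difference of 0.62 ± 0.13 (adjusted p = 0.0208, called without any 1 array, adjusted p up to 0.0457).

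Timmdc1 carries a TIM-like name but takes part in assembling complex I of the respiratory chain. Its probe set 1420329_at read 380.2, 399.6, 417.4, 360.7 and 451.3 in old CR mice, against 289.2, 225.8, 204.4, 254.4 and 252.8 in old mice. Again the groups did not overlap, and the ratio was 1.64, a log2 difference of 0.72 ± 0.16 (adjusted p = 0.0224). The call was lost by a small margin without old CR 7 (adjusted p = 0.0529), old 2 (0.0539) or old 3 (0.0571).

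The promoters of Timm13 and Timmdc1 are shown beside each other because both genes were called higher and their promoters differ in the motifs found. Timmdc1 holds the ETS letters CCGGAAG (either strand) at 4 places, starting 144, 33, 11 and 8 bases before the start, the last 2 overlapping, and these are in capitals. Timm13 holds instead a short form of the NRF-1 motif, CGCANGCGC (either strand), starting 193 bases before the start, also in capitals.
Timm13, chr10:80900920-80901219, minus strand: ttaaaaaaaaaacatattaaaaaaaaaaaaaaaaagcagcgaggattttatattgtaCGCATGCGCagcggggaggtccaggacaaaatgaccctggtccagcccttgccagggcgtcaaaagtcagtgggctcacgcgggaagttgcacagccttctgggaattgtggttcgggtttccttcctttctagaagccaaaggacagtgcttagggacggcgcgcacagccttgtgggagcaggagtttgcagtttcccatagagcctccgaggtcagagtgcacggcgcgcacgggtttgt
Timmdc1, chr16:38522614-38522913, minus strand: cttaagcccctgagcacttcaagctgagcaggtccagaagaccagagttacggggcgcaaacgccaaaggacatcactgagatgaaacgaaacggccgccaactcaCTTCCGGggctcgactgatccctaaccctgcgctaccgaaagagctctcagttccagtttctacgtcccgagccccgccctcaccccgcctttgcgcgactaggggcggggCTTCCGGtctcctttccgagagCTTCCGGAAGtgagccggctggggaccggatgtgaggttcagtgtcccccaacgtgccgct

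The other 11 probe sets of the small TIM chaperones, which escort carriers and other membrane proteins between TOM and the inner membrane, were not called, and 8 of the 12 in all had a higher mean in old CR mice (median difference 0.25). Timm9, which builds a hexamer with Timm10, read (1449886_a_at) 248.5, 278.0, 220.2, 176.6 and 349.1 in old CR mice, against 147.8, 206.3, 164.6, 144.8 and 138.4 in old mice. Only old CR 6 fell within the old range, and the difference was 0.64 ± 0.18 (adjusted p = 0.0529, or 0.0467 without young 3). The other Timm9 probe set, 1428010_at, was at -0.11 ± 0.62. For Timm10b, which works with the TIM22 complex, 2 of 4 probe sets were close to the threshold, 1436416_x_at at 0.41 ± 0.12 (adjusted p = 0.0706) without overlap between the groups, and 1417916_a_at at 0.45 ± 0.14 (adjusted p = 0.0755). The partner genes did not all run this way, as Timm10 had a difference of -0.12 ± 0.13.

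Among the 8 probe sets of the TIM23 channel and motor, Timm17b was the second call. Timm17 proteins line the TIM23 channel, and mammals have the isoforms Timm17a and Timm17b. Timm17b (1460685_at) read 687.1, 634.8, 603.6, 664.7 and 755.0 in old CR mice, against 870.7, 911.0, 832.2, 969.7 and 1038 in old mice. All old CR values were below all old values, at a ratio of 0.724 and a log2 difference of -0.47 ± 0.12 (adjusted p = 0.0377). The call was lost when any old array or old CR 2, 3, 5 or 6 was left out (adjusted p 0.0561 to 0.0830). The other Timm17b probe set had a difference of -0.25 ± 0.20, whereas Timm17a was at 0.23 ± 0.17, and neither passed the test. The channel subunit Timm23, at 0.16 ± 0.11, and the presequence receptor Timm50, at 0.41 ± 0.17, were not called (adjusted p = 0.409 and 0.176). Of the 4 probe sets of the TIM22 route, Timm22 1448517_at, the carrier insertion channel, had the largest positive difference, 0.42 ± 0.16 (adjusted p = 0.150), and Timm29 1426746_at, its partner subunit, was at -0.32 ± 0.17 (adjusted p = 0.289).

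No TOM probe set was called. Of the 11 for the receptors, which bind precursor proteins at the mitochondrial surface, 7 had a higher mean in old CR mice and 4 a lower one. Tomm20 1423079_a_at had the smallest p of the receptor probe sets. It read 7656, 7051, 6855, 6281 and 5715 in old CR mice, against 4468, 4904, 5635, 6458 and 4504 in old mice. Old mouse 4 lay among the old CR mice, and the difference was 0.38 ± 0.13 (adjusted p = 0.114), while the other 4 Tomm20 probe sets had differences of -0.27 to 0.10. Tomm22 was at -0.05 ± 0.16 and Tomm70a at -0.19 ± 0.18 by their brightest probe sets. Of the 6 probe sets of the channel and its small subunits, 5 had a higher mean, with Tomm40 at 0.59 ± 0.33, its paralog Tomm40l at 0.46 ± 0.17 and the small subunit Tomm7 1428215_x_at at 0.24 ± 0.11 (adjusted p = 0.316, 0.129 and 0.248). The cytosolic cochaperone Tomm34 was at 0.18 ± 0.18.

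**Figure D2:**
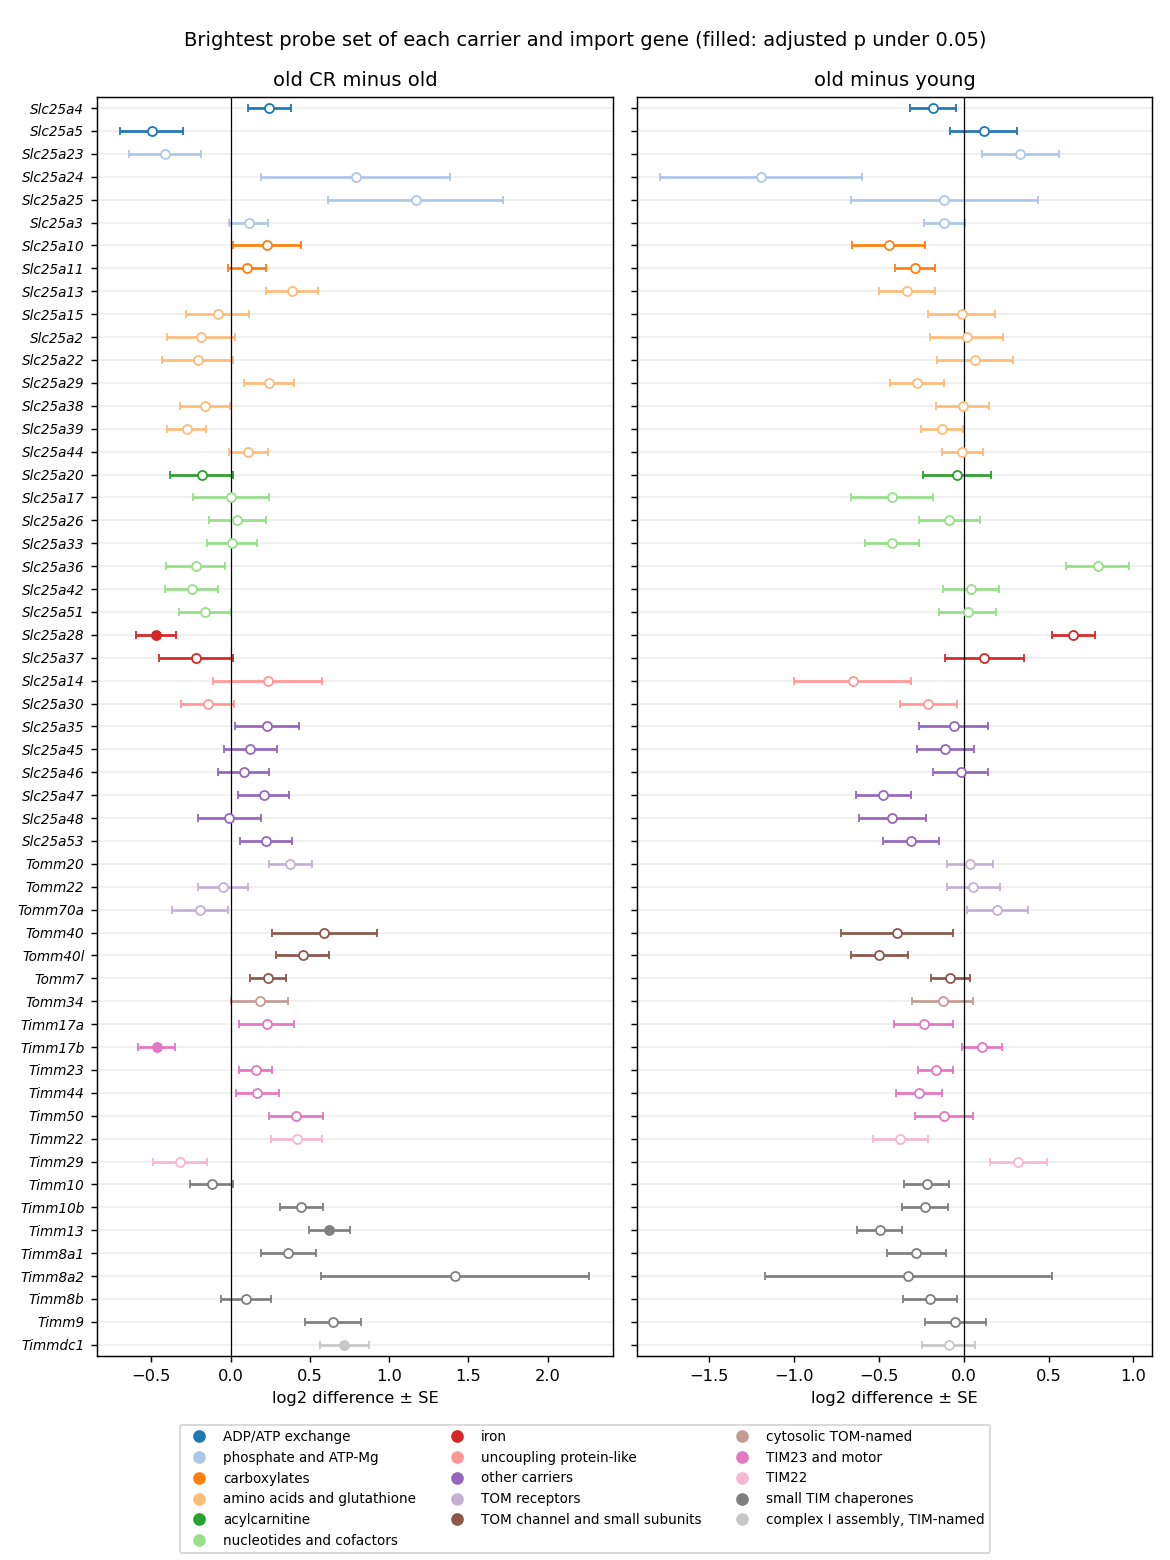
Log2 difference ± SE of the brightest probe set of each of the 55 genes, old CR minus old on the left and old minus young on the right, colored by role, with filled points where the adjusted p was under 0.05. In old CR minus old 34 genes lie right of 0 and 21 left, with 4 filled (Timm13, Timmdc1, Timm17b and Slc25a28), and in old minus young 14 lie right and 41 left with none filled.

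Among the carriers, 36 of 65 Slc25 probe sets had a higher mean in old CR mice and 29 a lower one, and 2 were called, both lower. Slc25a28, or mitoferrin 2, brings iron into the matrix for heme and iron-sulfur clusters in tissues other than the red cell line. Its probe set read 1274, 1133, 1229, 954.0 and 1087 in old CR mice, against 1606, 1353, 1595, 1944 and 1414 in old mice. All old CR mice were below all old mice, at a ratio of 0.720 and a log2 difference of -0.47 ± 0.13 (adjusted p = 0.0463). This call was the least stable: it was lost without any 1 array other than young 3 (adjusted p 0.0511 to 0.0989). Slc25a37, mitoferrin 1, the form of red cell precursors, was at -0.22 ± 0.23 (adjusted p = 0.626).

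The promoter of Slc25a28 is shown as that of a gene called lower, and it held none of the 4 motifs searched.
Slc25a28, chr19:43674832-43675131, minus strand: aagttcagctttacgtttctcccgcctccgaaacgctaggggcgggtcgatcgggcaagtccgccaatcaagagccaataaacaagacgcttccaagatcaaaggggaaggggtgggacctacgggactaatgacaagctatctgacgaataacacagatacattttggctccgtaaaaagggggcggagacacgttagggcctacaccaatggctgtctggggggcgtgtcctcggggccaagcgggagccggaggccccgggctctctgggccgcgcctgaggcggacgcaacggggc

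Slc25a29 carries arginine and lysine. Its probe set 1423981_x_at read 70.29, 65.93, 57.54, 67.43 and 153.5 in old CR mice, against 276.4, 310.9, 390.4, 80.37 and 221.7 in old mice. Old CR 7 was the highest of its group and old 4 the lowest of its own, and these crossed. The ratio was 0.341, a log2 difference of -1.55 ± 0.38 (adjusted p = 0.0363), at a low intensity, and the call was lost without old CR 2, 3, 5 or 6 or old 1, 2, 3 or 5 (adjusted p 0.0662 to 0.0835). The 5 probe sets of Slc25a29 did not run together: 1423979_a_at, also dim, was at -1.21 ± 0.38 (adjusted p = 0.0832) and 1423980_at at -0.22 ± 0.51, while the 2 brighter ones were at 0.24 ± 0.16 and 0.42 ± 0.17. The remaining 12 amino acid and glutathione probe sets had differences within -0.28 to 0.51 and none was called, with the glutathione carrier Slc25a39 at -0.28 ± 0.12 by its brightest probe set and 0.51 ± 0.21 by another.

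The ADP/ATP carriers, which export ATP from the matrix, were not called in any of their 12 probe sets. Slc25a4, the heart and muscle form, read 22961, 25498, 28718, 33524 and 33736 in old CR mice, against 27285, 19843, 26268, 22950 and 25056 in old mice (1424562_a_at). The groups overlapped, and the difference was 0.24 ± 0.14 (adjusted p = 0.314), with the other 3 Slc25a4 probe sets at 0.10 to 0.23. Slc25a5, the more widespread form, had 8 probe sets with differences of -0.50 to 0.22. The phosphate carrier Slc25a3 was at 0.11 ± 0.12 (adjusted p = 0.634). The calcium-regulated ATP-Mg carrier Slc25a25 varied among mice, with 416.0, 645.1, 2153, 1410 and 3310 in old CR mice, against 454.1, 329.9, 443.8, 654.9 and 1081 in old mice. Old CR 5, 6 and 7 were above every old mouse and old CR 2 and 3 were not, and the difference of 1.17 ± 0.55 was not called (adjusted p = 0.233). Slc25a24, another ATP-Mg carrier, was at 0.79 ± 0.60 (adjusted p = 0.473).

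The probe sets of the remaining carriers had differences of -0.52 to 1.07. By their brightest probe sets, the carnitine-acylcarnitine carrier Slc25a20, which admits fatty acids for oxidation, was at -0.18 ± 0.20, and the oxoglutarate-malate carrier Slc25a11 at 0.10 ± 0.12. Of the 11 probe sets for nucleotide and cofactor carriers, 5 had a higher and 6 a lower mean, with the pyrimidine nucleotide carrier Slc25a36 at -0.22 ± 0.19 and the NAD carrier Slc25a51 at -0.16 ± 0.17. The uncoupling protein-like carriers Slc25a14 and Slc25a30 had 3 higher and 3 lower probe sets. The wider differences were in other probe sets, namely Slc25a10 1416955_at (1.07 ± 0.52), Slc25a51 1427425_at (0.86 ± 0.32), Slc25a48 1446966_at (0.71 ± 0.25), Slc25a30 1425948_a_at (0.59 ± 0.44) and Slc25a17 1424912_at (-0.52 ± 0.35), with adjusted p of 0.108 to 0.461. Of the 8 probe sets of other carriers 6 had a higher mean, and Slc25a46, an outer membrane protein of mitochondrial dynamics, was at 0.08 ± 0.16. None of these probe sets was called, and an adjusted p above the threshold does not show that the groups were alike.

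**Figure D3:**
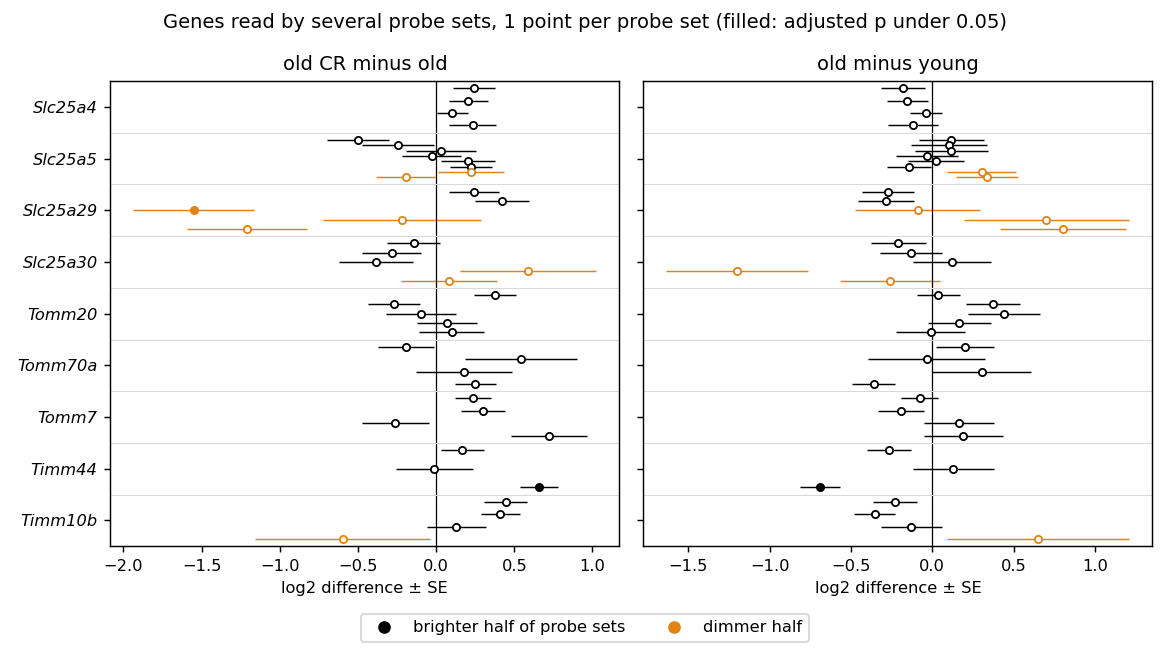
Log2 difference ± SE of every probe set of 9 genes read by several probe sets, old CR minus old on the left and old minus young on the right, with black points for probe sets among the 11313 brightest and orange ones for the rest, filled where the adjusted p was under 0.05. For Timm44 1 of 3 probe sets is filled in both panels, and for Slc25a29 the filled dim probe set (-1.55) lies opposite to the brighter ones (0.24 and 0.42).

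Probe sets of 1 gene often differed in sign. Of the 26 genes read by several probe sets, 9 had all probe sets on the same side in old CR against old and 17 had both signs. The count was 12 and 14 in old against young, and 11 and 15 in old CR against young. Slc25a4 was among those with 1 sign in old CR against old, and Tomm20, Tomm7 and Timm10b were among those with both.

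Old mice were then compared with young mice, which addresses age on the normal diet. Only Timm44 was called, and it was lower in old muscle. This 1 of 108 probe sets, or 0.926%, stands beside 0.265% of all probe sets called and 0.146% called lower, and a count of 1 gives no measure of a share. An unadjusted p under 0.05 was found for 14 members, beside 15.5% of all probe sets. Of the 108, 40 had a higher mean in old mice and 68 a lower one, with a median of -0.09 on the log2 scale beside -0.06 over all probe sets. Among the 11313 brightest the medians were -0.06 for the members and -0.02 for all. By the brightest probe set, 14 genes were higher and 41 lower.

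Timm44 1417670_at read 442.6, 399.3, 417.3, 386.6 and 378.5 in old mice, against 630.0, 692.4, 517.5, 772.9 and 676.0 in young mice. Every old mouse was below every young mouse, of which young 3 was the lowest. The difference was -0.69 ± 0.12 (limma adjusted p = 0.0417), and the other probe sets of Timm44 were at -0.26 ± 0.14 and 0.13 ± 0.25. The call held only without old CR 2, old 1 or young 3, and with any other array left out it was lost (adjusted p 0.0550 to 0.110).

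Another 6 probe sets did not overlap between old and young mice. This made 7 of 108 without overlap, beside 3.61% of all probe sets (1.61% higher and 2.0% lower). Slc25a28 was the only one higher, with 1606, 1353, 1595, 1944 and 1414 in old mice, against 1029, 985.1, 1087, 1032 and 896.8 in young mice. The lowest old mouse was above the highest young mouse, with a difference of 0.64 ± 0.13 (adjusted p = 0.0530). Timm13 was among the lower ones, with 1300, 1468, 1396, 1193 and 1589 in old mice, against 1880, 1959, 1623, 1913 and 2463 in young mice. Old 5 and young 3 were the nearest of the 2 groups, and the difference was -0.50 ± 0.13 (adjusted p = 0.104).

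The other lower probe sets without overlap were Slc25a11, at -0.29 ± 0.12, the pyrimidine nucleotide carrier Slc25a33, at -0.42 ± 0.16, the carrier Slc25a47, at -0.47 ± 0.16, and Timm10b 1417916_a_at, at -0.23 ± 0.14, with adjusted p of 0.179 to 0.444. Tomm40l, with 583.3, 744.9, 588.1, 441.7 and 608.1 in old mice, against 684.9, 865.1, 765.4, 909.9 and 934.0 in young mice, overlapped only through old 2 and young 1 (-0.50 ± 0.17, adjusted p = 0.171). Slc25a36 1419657_a_at, a carrier of pyrimidine nucleotides like Slc25a33, ran the other way, with 730.1, 748.9, 802.5, 981.5 and 663.7 in old mice, against 405.0, 389.7, 678.3, 395.2 and 439.0 in young mice. Young 3 alone reached the old values, and the difference was 0.79 ± 0.19 (adjusted p = 0.0769).

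Leaving out young 3, the young mouse with the 3' to 5' difference of the old group, brought the count of called members to 4. Without it Slc25a36 differed by 0.94 (adjusted p = 0.00582), Slc25a28 by 0.67 (0.0125), Timm13 by -0.56 (0.0278) and Timm44 by -0.77 (0.00193). The share of all probe sets called without young 3 is not given here, so the rise is not read as particular to the members. Timm10b 1436416_x_at (-0.35 ± 0.12), Slc25a30 1425948_a_at (-1.20 ± 0.44) and Tomm70a 1434243_s_at (-0.36 ± 0.13) were also among the 10 members with the smallest p and were not called. By role, 10 of 12 small TIM probe sets had a lower mean in old mice, 12 of 17 for amino acids and glutathione and 7 of 8 for other carriers, whereas 8 of 11 TOM receptor probe sets had a higher one. The energy carriers Slc25a4 (-0.18 ± 0.14) and Slc25a3 (-0.11 ± 0.12) were not called.

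Old CR mice were last compared with young mice. None of the 108 probe sets was called by limma, beside 0.0884% of all probe sets, with a smallest adjusted p of 0.118, and 18 had an unadjusted p under 0.05, beside 12.1% of all. There were 54 with a higher and 54 with a lower mean and a median of 0.00. In 5 probe sets the groups did not overlap, 2 higher and 3 lower, beside 3.57% of all probe sets, 1.68% higher and 1.89% lower. Timmdc1 was one, with 380.2, 399.6, 417.4, 360.7 and 451.3 in old CR mice, against 336.1, 256.3, 278.3, 183.6 and 264.5 in young mice. Its old CR values were above both other groups, and the difference from young mice was 0.63 ± 0.16 (adjusted p = 0.130).

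Tomm20 1423079_a_at was also higher without overlap, with 7656, 7051, 6855, 6281 and 5715 in old CR mice, against 4548, 5388, 4678, 4887 and 5625 in young mice (0.42 ± 0.13, adjusted p = 0.227). The probe sets lower without overlap were Slc25a29 1423981_x_at (-1.64 ± 0.38), Timm17b 1460685_at (-0.36 ± 0.12) and Slc25a39 1439410_x_at (-0.41 ± 0.12). Others of the 10 with the smallest p were higher in old CR mice, namely Tomm7 1434732_x_at (0.91 ± 0.24), Timm9 (0.60 ± 0.18), both Slc25a36 probe sets (0.57 ± 0.19 and 0.65 ± 0.22) and the dicarboxylate carrier Slc25a10 1416955_at (1.40 ± 0.52), with adjusted p of 0.158 to 0.295. The Slc25a10 probe set was dim, with means of 106.0 in old CR and 41.8 in young mice. The summed intensities of 7 tendon and fibroblast markers (6718 to 11560 in old CR, 13252 to 22728 in young mice) and of the 2 measured Schwann cell markers (3254 to 5181 in old CR, 5521 to 6986 in young mice) did not overlap in this comparison, and their part in these differences was not tested. Timm44 and Timm13 were at -0.03 ± 0.12 and 0.13 ± 0.13, and Slc25a28 was at 0.17 ± 0.13. The comparison of old CR with old mice and that of old with young mice share the 5 old arrays, so their opposite signs for Timm44, Timm13 and Slc25a28 are not separate observations.

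The Timm44, Timm13 and Slc25a28 intensities and the 3' minus 5' difference both separated old from old CR mice. The 5 old mice, at 0.05 to 0.27, and young 3, at 0.06, had the highest 3' minus 5' values. Young 3 had the lowest Timm44 (517.5) and Timm13 (1623) intensity of the young mice and the highest Slc25a28 (1087). For Timmdc1 (278.3), Timm17b (847.4) and Slc25a29 1423981_x_at (190.9) it lay between other young mice. Among the old mice, old 1 had the highest 3' minus 5' value (0.27) and the highest Timm44 (442.6). Old 5 had the lowest of both (0.05 and 378.5). Timm13 stood the other way round in these mice. Old 5 had the highest Timm13 (1589), and old 1 (1300) was above only old 4 (1193). For Slc25a28, old 1 (1606) was below only old 4 (1944), and old 5 (1414) was above only old 2 (1353). When the 3' minus 5' value was entered in the fit as a covariate, no member and no other probe set of the array was called in old CR against old. Timm44 was then 0.48 higher in old CR than in old mice (adjusted p = 0.804), Timm13 0.25 (0.912) and Timmdc1 0.85 (0.714), and Timm17b was at -0.65 (0.694), Slc25a28 at -0.30 (0.886) and Slc25a29 1423981_x_at at -2.09 (0.708). Because the covariate itself separated the groups, diet and RNA quality cannot be told apart by this fit. Slc25a36 in old against young was at 0.26 with the covariate (adjusted p = 0.913).

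**Figure D4:**
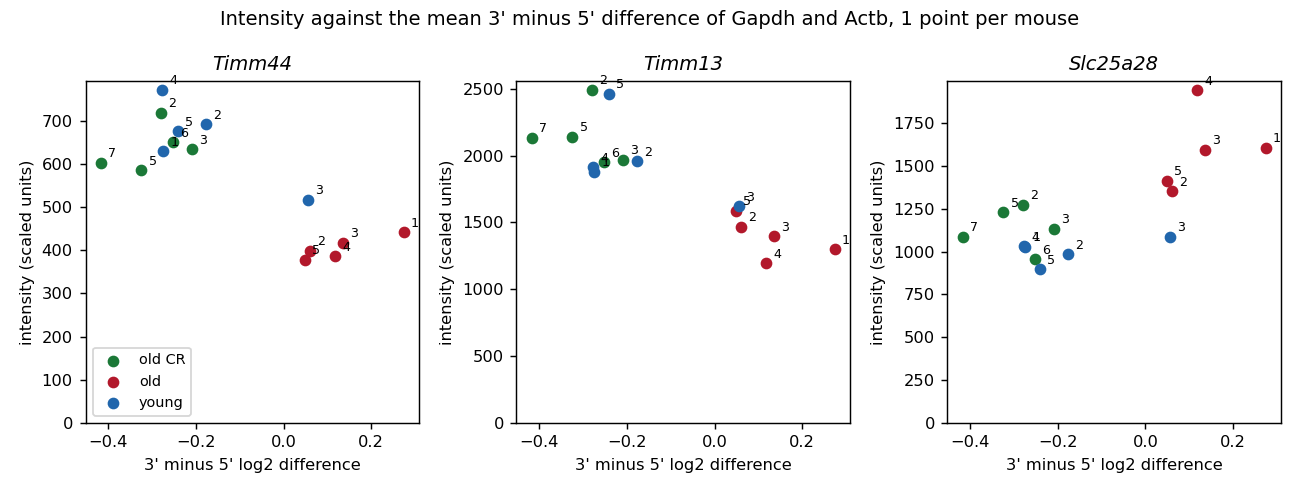
Intensity (scaled units, linear axis from 0) of Timm44 1417670_at, Timm13 and Slc25a28 against the log2 difference of 3' and 5' signal averaged over Gapdh and Actb, with 1 point per mouse numbered by replicate. The 5 old mice lie at 0.05 to 0.27 with low Timm44 and Timm13 and high Slc25a28, and young 3 (0.06) lies nearest to them.

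The genes whose log2 intensity followed Timm44 1417670_at most closely over the 15 arrays, by the brightest probe set of each gene, were Timm13 (Pearson's r = 0.85), Tomm40l (0.76), Timm22 (0.70), Timm10b (0.66) and Slc25a47 (0.61). These values include the differences between groups. After each group's mean was taken away they were 0.38, 0.40, 0.33, 0.30 and 0.28 in the same order. The arrays share their scaling and RNA quality, so these values describe the arrays only.

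Of 37 other genes of import, processing and the cristae, 30 were measured, by 55 probe sets. None was called in old against young mice (0.265% of all probe sets) or in old CR against young mice (0.0884% of all). In old CR against old mice 2 genes were called higher and 0 lower by their brightest probe sets. In all, 4 of the 55 probe sets were called higher there, beside 2.7% of all probe sets. Hspa9, the matrix Hsp70 that Timm44 binds, read 5295, 4174, 4018, 3844 and 3838 in old CR mice, against 2368, 2178, 2466, 3743 and 1959 in old mice. The groups did not overlap, although old 4 came near, and the difference was 0.76 ± 0.17 (adjusted p = 0.0245). This was 1418504_at, and no other Hspa9 probe set was called. 1418503_at was at 0.62 ± 0.20 (adjusted p = 0.0858), 1431274_a_at at 2.95 ± 0.91 (0.0750) and 1453811_at at 0.27 ± 0.48 (0.785). Chchd3, a subunit of the cristae junction complex, read 5003, 4380, 4965, 4712 and 5320 in old CR mice, against 3275, 3436, 3590, 2644 and 2922 in old mice. It did not overlap either (0.63 ± 0.12, adjusted p = 0.0143). A dimmer Chchd3 probe set, 1431241_at, was at 0.15 ± 0.17 and was not called (adjusted p = 0.647).

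Another 2 probe sets that were not the brightest of their gene were called higher in old CR mice. For Pmpca, a subunit of the peptidase that removes presequences, 1424661_at was at 0.90 ± 0.17 (adjusted p = 0.0143), while 1424662_at was at 0.00 ± 0.12. For Immt, which shapes the cristae junction, 1429533_at read 1772, 2079, 1954, 1501 and 2112 in old CR mice, against 732.0, 601.5, 719.0, 678.9 and 693.5 in old mice (1.45 ± 0.26, adjusted p = 0.0113). Its young values were 1843, 1651, 611.7, 1866 and 1625, and the exception was again young 3. The brighter Immt probe sets were not called, with 1429534_a_at at 0.31 ± 0.13 (adjusted p = 0.162) and 1433470_a_at at 0.35 ± 0.25 (0.455). The median difference over the 30 genes was 0.06 in old CR against old mice.

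Complex I subunits and mitochondrial ribosomal proteins, both made largely of imported proteins, were set beside these genes. In old CR against old mice 6 of 65 complex I probe sets were called (9.23%), all higher, with 58 higher and 7 lower means and a median of 0.24, and 11 of 127 ribosomal probe sets (8.66%), all higher, with a median of 0.21. The carriers and import genes had 3 calls in each direction and a median of 0.09. Over all probe sets 4.87% were called, 2.7% higher and 2.17% lower, with a median of 0.06. In old against young mice no complex I or ribosomal probe set was called, beside 0.265% of all probe sets. Their medians were -0.23 and -0.14, against -0.09 for the carriers and import genes and -0.06 over all probe sets. These counts and medians were not tested against each other.

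The promoter table matched 46 of the 55 genes. Within the window shown above, the ETS letters CCGGAAG stood on either strand in 16 of the 46 (34.8%), among them Slc25a3, Slc25a4, Timm23, Tomm22 and Timmdc1, beside 16.4% of the genes on the array and 8.86% of all promoters. The NRF-1 letters CGCANGCGC stood in Slc25a3, Timm13, Timm29, Timm50, Timm8b and Tomm20 (13.0%, beside 12.6% of genes on the array), the YY1 letters AANATGGCG in Slc25a3, Timm44 and Timm50 (6.52%, beside 4.73%), and the ERR letters TCAAGGTCA in Timm8b only (2.17%, beside 0.344%). Of the 6 called genes, Timm44, Timm13 and Timmdc1 held any of the 4, and a match of letters is not a binding site.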

How the data were processed

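Gene expression was measured in 15 gastrocnemius samples with 1 array per mouse. The table that the authors deposited holds linear intensity, 1 value for each probe set on each array. Its arrays share a trimmed mean of 500.0 (2% taken off each end) but not their quartiles, so each array had been scaled on its own and the values are not quantile-normalized. MAS5 and RMA are named, without versions, in the processing notes of the submitters. Here log2 was taken with no pseudocount, and 64 control probe sets were left out. For the remaining 22626, lmFit and eBayes of limma 3.58.1 (R 4.3.3) were run without a variance trend and with the 3 groups in 1 fit, with Benjamini-Hochberg adjustment within each comparison and a call at an adjusted p under 0.05. Array quality was compared by two-sided exact permutation in Python 3.11.15 with SciPy 1.17.1. The fit was tested on simulated data.

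In the platform annotation 20393 probe sets had 1 symbol, 691 had more and 1606 had none, and only those with 1 symbol were given a gene name. Symbols are those of that annotation (for example Tomm70a). The members, roles and lists were chosen with earlier results of these data known. Named were the members called in a comparison, those with the smallest p up to 10 per comparison, the brightest probe set of each role and of each ADP/ATP carrier, TOM receptor and TOM channel gene, Slc25a28, and other probe sets of these genes. Timm50, Timm29, Timm10, Timm17a, Slc25a17, Slc25a24, Slc25a25, Slc25a37, Slc25a48 and Slc25a14 were named after their values were seen, as partners or by the size or spread of their differences. Promoters came from RefSeq (GRCm38.p6), and the motif letters were set after the fits had been seen. The alternatives were centering on the median, quantile normalization, the 11313 brightest probe sets, a pseudocount of 50, a fit of only 2 groups, a variance trend with robust eBayes, array weights, the RNA quality measure as a covariate, a block for the replicate number, a threshold of 0.10 for the adjusted p, and leaving out each array. The number of arrays limits the precision.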

Additional observations from a re-analysis of the deposited data

Results flagged for a closer look

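In 8 of 108 groups of 5 values (36 named probe sets in 3 groups each) 1 sample lay far from the other 4, and chance alone gives such a gap in about 1 of 20 groups. Young 3 accounted for 3 of them. It was high for Slc25a36 1419657_a_at (678.3, the others 389.7 to 439.0), and low for Tomm40 (341.2, the others 792.3 to 942.2) and for Slc25a30 1425948_a_at (74.48, the others 176.2 to 249.6). For the same Slc25a30 probe set, old 1 was low (36.92, the others 73.36 to 95.78). Old CR 2 was low for Tomm34 (789.4, the others 1070.4 to 1191) and for Slc25a36 1419656_at (292.7, the others 339.8 to 352.8). Old CR 7 was high for Slc25a29 1423981_x_at (153.5, the others 57.54 to 70.29). Young 2 was high for Tomm7 1434732_x_at (298.3, the others 150.0 to 162.9).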

How the results depend on the processing

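Under the alternatives no called difference changed its sign. Of the 108 probe sets, 1 was called in old against young mice. The count was 3 at an adjusted p under 0.10 and with a pseudocount of 50, 4 with array weights, among the 11313 brightest and with a variance trend, 0 with only the 2 groups and with the 3' minus 5' covariate, and 0 to 4 with 1 array left out, the 4 being without young 3. In old CR against old mice 6 were called. The count was 10 at an adjusted p under 0.10, 3 with only the 2 groups, 0 with the covariate, and 2 to 7 with 1 array left out, with 2 without old 2 or old 3 and 3 without old 1, old CR 3 or old CR 5. In old CR against young mice 0 were called, with 2 among the 11313 brightest and 0 to 1 with 1 array left out, the 1 being without old 4. The shares of all probe sets called are not given beside these counts, so the changes are not read as particular to the members. With each array centered on its median, the median of members was 0.0043 in old against young and 0.0018 in old CR against old mice, and the counts of calls were 1 and 6. Samples with the same replicate number did not deviate together (correlations of -0.12 to 0.07), so the numbers pair no samples. With the replicate number as a block 0 members were called in any comparison, and 4 probe sets of the whole array were called in old CR against old mice. Of the alternatives for single members, 619 left the direction and the side of the threshold as they were, 67 lost a call and 27 gained one. The cause of these changes was not tested.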
